A study of Mus musculus with 4 samples.

Results

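Transcripts of the interleukin-1 (IL-1) system were examined as 10 genes in libraries of tumor-associated macrophages (TAMs): the ligands *Il1a*, *Il1b*, *Il18* and *Il33*, the receptor antagonist *Il1rn*, the receptors *Il1r1*, *Il1r2* and *Il1rl1*, and the inflammasome genes *Nlrp3* and *Casp1*. They were found by gene symbol among the 54532 Ensembl genes of the count table, and all 10 passed the filter on low counts. TAMs came from NB9464 tumors, which grow from a mouse neuroblastoma line with amplified *MYCN*. Untreated mice received NB9464 cells, tumors were taken on day 40, and CD11b+ F4/80+ cells were enriched on magnetic beads. RNA was selected by its polyA tail and sequenced as paired reads of 150 bases from 2 libraries per genotype. Both genotypes were on the C57BL/6 background. In SykMC-KO mice, floxed *Syk* is cut by a Cre driven by the lysozyme M gene (*Lyz2*), so that deletion is limited to cells that express *Lyz2*. SykMC-WT mice are their wild type control, and whether the controls carry the Cre or the floxed alleles is not given in the sources used here. Libraries M7 and M8 are labelled SykMC-WT, and M9 and M10 are labelled SykMC-KO. The labels also name BMDMs as the source of the RNA and an adoptive transfer in the title, which the bead isolation from tumors does not describe.

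IL-1α and IL-1β bind the same receptor, IL1R1, and switch on NF-κB in the receiving cell. IL-1RA, the product of *Il1rn*, occupies that receptor without signaling, and IL1R2 is a decoy that binds the ligands but has no signaling domain. IL-1β and IL-18 are made as inactive precursors that caspase-1 cuts once an inflammasome such as NLRP3 has assembled, whereas IL-33 is a nuclear alarmin of stromal and barrier cells that acts through ST2, the product of *Il1rl1*. In macrophages, *Il1b* and *Nlrp3* are typical genes of inflammatory priming, so transcript levels alone do not report how much active cytokine is released.

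Total counts lay between 20755886 and 23518045 per library. Mitochondrial genes took 2.2% to 6% of the counts in M7, M8 and M9 and 15.9% in M10. The targeted gene went against its label with TMM scaling. *Syk* measured 27.9 and 23.2 CPM (counts relative to TMM-scaled library totals, on the usual CPM scale) in M7 and M8 and 196 and 160 CPM in M9 and M10, 6.98-fold higher in the libraries labelled SykMC-KO (log2 2.80, SE 0.194, adjusted p = 0.000674). *Lyz2* measured 296 and 208 CPM in M7 and M8 against 8.64 and 20.2 CPM in M9 and M10, 17.5-fold lower in the libraries labelled SykMC-KO (log2 -4.13, adjusted p = 0.00156). The LysM Cre allele in common use sits in the *Lyz2* locus and disrupts it, so *Syk* ran against the labels and *Lyz2* did not. Genotypes are therefore given as labelled throughout. Whether the labels were exchanged was not tested, and if they were, every direction given here would turn. Macrophage markers were present in every library and differed in the same direction as *Syk*, with a summed level of the 10 genes of 1135 and 803 CPM against 9531 and 5702 CPM. Their median log2 fold change was 3.01, beside 2.80 for *Syk*. Whether *Syk* differed relative to macrophage markers was not tested. Of the neuroblastoma markers, *Th* and *Dbh* had 0 counts in every library and *Hand2* measured 178 to 301 CPM. Adjusted p-values come from edgeR's quasi-likelihood test, adjusted by Benjamini-Hochberg across 16451 genes, and a gene under 0.05 is said to be called. Because no source says that the libraries came from separate mice, they measure only the spread between these libraries. TMM scaling takes the middle of the gene distribution as unchanged, and here the median log2 fold change of all genes was 0.02.

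Of the 10 genes, 6 were called higher in the libraries labelled SykMC-KO (*Il1a*, *Il1b*, *Il1rn*, *Il1r2*, *Nlrp3* and *Casp1*), although *Il1r2* and *Casp1* turned below 0 when the libraries were scaled to macrophage, pan-leukocyte or neutrophil genes. *Il1b*, *Il1rn* and *Nlrp3* stayed above 0 with those 3 scalings but were no longer called, and *Il1a* was called with the first 2 of them. Across all genes tested, 22.7% were called higher. The 3 genes called lower were *Il33*, *Il1r1* and *Il1rl1*, beside 16.7% of all genes. *Il18* was not called. The DESeq2 Wald test called the same 9 genes, beside 19.6% of all genes higher and 15.9% lower. In every one of the 10 genes both libraries of one label lay on the same side of both libraries of the other, which also held for 75.2% of all genes tested. The median log2 fold change of the 10 genes was 2.84 with TMM scaling. It was -0.02, -0.39 and -0.37 when scaled to macrophage, pan-leukocyte and neutrophil genes, and 3.95 when scaled to fibroblast markers.

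**Figure D1:**
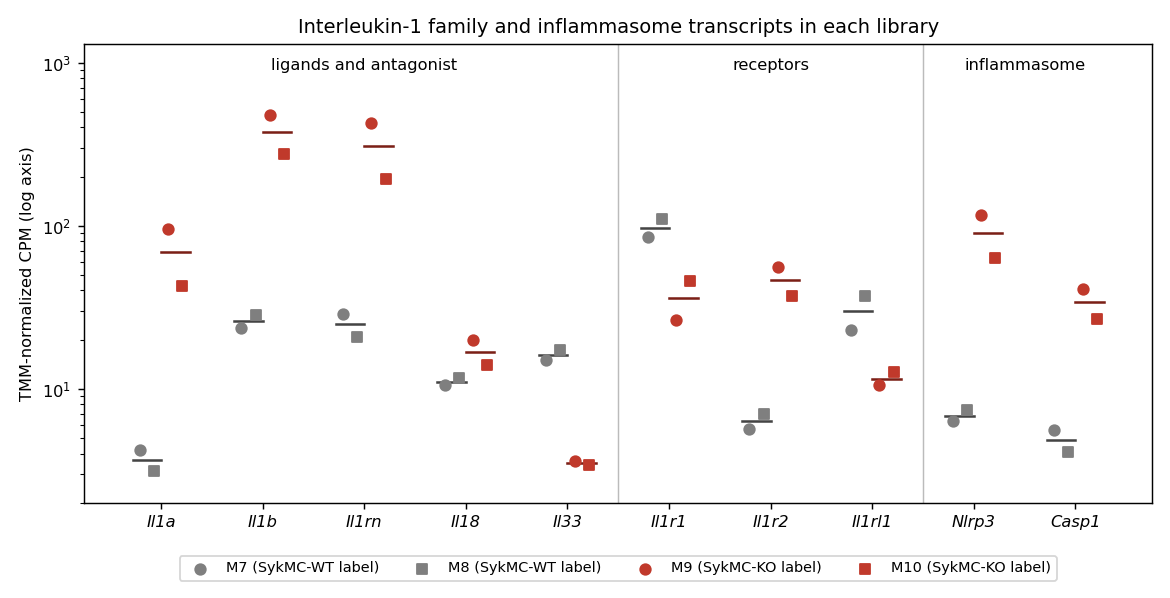
Level of each of the 10 genes in each library, in TMM-normalized CPM on a log axis, with 1 point per library. M9 and M10 lie above M7 and M8 for *Il1a*, *Il1b*, *Il1rn*, *Il1r2*, *Nlrp3*, *Casp1* and *Il18* (of which *Il1r2*, *Casp1* and *Il18* have a log2 fold change below 0 when scaled to macrophage, pan-leukocyte or neutrophil genes), and below them for *Il33*, *Il1r1* and *Il1rl1*.

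Among the ligands, *Il1a* and *Il1b* rose most. *Il1a*, which encodes IL-1α (ENSMUSG00000027399, minus strand of chr2:129299610-129309972 on GRCm38), had 115 and 77 counts in M7 and M8 and 1950 and 780 in M9 and M10. In CPM these were 4.19 and 3.13 against 94.7 and 42.5, with means of 3.66 ± 0.749 and 68.6 ± 36.9 (SD, n = 2). The groups did not overlap, M9 held more than M10, and the mean was 18.7-fold higher in the libraries labelled SykMC-KO (log2 4.22, SE 0.432, adjusted p = 0.00145). Without M9 the log2 fold change of *Il1a* was 3.44. It was 1.34 when scaled to macrophage markers (adjusted p = 0.0241) and 0.91, not called, when scaled to neutrophil markers (adjusted p = 0.212). The gene stood at rank 164 from the top of the 16451 fold changes.

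*Il1b*, which encodes IL-1β (ENSMUSG00000027398, minus strand of chr2:129364570-129371139), was the most abundant of the 10 genes per exon length in M9 and M10. It measured 23.5 and 28.2 CPM in M7 and M8 and 479 and 276 CPM in M9 and M10, from 645, 693, 9861 and 5063 counts. The lowest library labelled SykMC-KO was thus far above the highest labelled SykMC-WT. The difference was 14.6-fold (log2 3.87, SE 0.314, adjusted p = 0.000861), and it was not called when scaled to macrophage markers (log2 0.95, adjusted p = 0.0829). Exons of both genes overlap a gene on the other strand, and whether counting used strand is not stated. The partner of *Il1a*, *Gm14023*, had 11 to 26 counts per library and that of *Il1b*, *Il1bos*, had 0 to 21.

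The sequences just before the start sites of *Il1a* and *Il1b* are shown because these neighbors, whose lowest coordinates lie 65.0 kb apart, moved together. Each line gives the 250 bases before the RefSeq start on GRCm38.p6, 5′ to 3′ on the minus strand, at chr2:129309973-129310222 for *Il1a* and chr2:129371140-129371389 for *Il1b*. Capitals mark TATAAA and, in *Il1a*, the AP-1 letters TGANTCA:
Il1a: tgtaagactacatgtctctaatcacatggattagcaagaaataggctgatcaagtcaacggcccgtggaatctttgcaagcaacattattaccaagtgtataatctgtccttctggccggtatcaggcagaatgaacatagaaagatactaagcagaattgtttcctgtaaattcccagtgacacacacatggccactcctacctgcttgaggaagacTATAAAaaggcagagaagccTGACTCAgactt
Il1b: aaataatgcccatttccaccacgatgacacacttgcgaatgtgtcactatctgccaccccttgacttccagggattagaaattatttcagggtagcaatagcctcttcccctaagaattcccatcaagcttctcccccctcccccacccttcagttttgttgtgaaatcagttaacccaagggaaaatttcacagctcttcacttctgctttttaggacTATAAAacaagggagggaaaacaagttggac
In *Il1a* the TATA letters lay 32 to 27 bases before the start and in *Il1b* 31 to 26 bases before it. The AP-1 letters of *Il1a* lay 12 to 6 bases before the start.

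*Il1rn*, the antagonist, rose with the ligands it opposes. The gene (ENSMUSG00000026981, plus strand of chr2:24336853-24351494) measured 28.8 and 20.8 CPM in M7 and M8 and 423 and 193 CPM in M9 and M10, from 789, 511, 8722 and 3539 counts. M9 again stood above M10, and M10 was still well above either library labelled SykMC-WT. The difference was 12.4-fold (log2 3.64, SE 0.413, adjusted p = 0.00189), and without M9 it was 2.87 in log2. Scaled to macrophage markers it was not called (log2 0.75, adjusted p = 0.168).

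*Il18*, whose product drives interferon-γ production in lymphocytes, differed little (ENSMUSG00000039217, chr9:50554827-50581840). It measured 10.5 and 11.6 CPM in M7 and M8 and 19.9 and 13.9 CPM in M9 and M10. The 1.53-fold difference did not pass the threshold (log2 0.61, SE 0.256, adjusted p = 0.102), and its log2 value was -2.26 when libraries were scaled to macrophage markers. With TMM scaling the log2 value was 0.86 without M10 and 0.24 without M9.

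*Il33* moved the other way. The gene (ENSMUSG00000024810, plus strand of chr19:29925114-29960718) had 411 and 424 counts in M7 and M8 and 74 and 62 in M9 and M10, with means of 16.1 and 3.49 CPM. Libraries of a label lay close together, and the level was 4.62-fold lower in those labelled SykMC-KO (log2 -2.21, SE 0.262, adjusted p = 0.00213). Scaled to fibroblast markers, which were also lower (median -1.44), its log2 value was -1.11 (adjusted p = 0.0202). Scaled to macrophage markers it was -5.04. RefSeq gives *Il33* a pair of start sites. The window before the downstream one, chr19:29945540-29945789 on the plus strand, is shown as the counterpart among genes that fell, with C/EBP letters (TTGCNNAA, 85 to 78 bases before the start) and TATAAA (29 to 24 bases before it) in capitals:
Il33: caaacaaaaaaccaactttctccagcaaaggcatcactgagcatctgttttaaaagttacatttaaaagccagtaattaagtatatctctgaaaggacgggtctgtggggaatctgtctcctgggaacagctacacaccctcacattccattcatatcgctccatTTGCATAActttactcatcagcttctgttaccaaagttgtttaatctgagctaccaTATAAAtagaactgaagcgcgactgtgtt
The counts are per gene and do not show which start was used.

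*Il1r1*, the signaling receptor (ENSMUSG00000026072, chr1:40225080-40317257), measured 84.8 and 110 CPM in M7 and M8 and 26.5 and 45.8 CPM in M9 and M10. It was 2.69-fold lower in the libraries labelled SykMC-KO (log2 -1.43, SE 0.285, adjusted p = 0.0108), and it was not called when scaled to fibroblast markers (log2 -0.38, adjusted p = 0.256). *Il1r2*, the decoy receptor (ENSMUSG00000026073, chr1:40074079-40125231), measured 5.65 and 7.04 CPM in M7 and M8 and 55.5 and 36.8 CPM in M9 and M10. It was 7.27-fold higher with TMM scaling (log2 2.86, SE 0.267, adjusted p = 0.00115), but its log2 value was -0.03 when scaled to macrophage markers and -0.39 when scaled to pan-leukocyte genes.

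*Il1rl1*, which encodes the IL-33 receptor ST2 (ENSMUSG00000026069, chr1:40429570-40465415), fell together with its ligand. It measured 22.9 and 36.8 CPM in M7 and M8 and 10.5 and 12.6 CPM in M9 and M10. The difference was 2.58-fold (log2 -1.37, SE 0.278, adjusted p = 0.0114). With a library left out, it was smallest without M8. When scaled to fibroblast markers it was not called (log2 -0.28, adjusted p = 0.432). Mast cells and group 2 innate lymphoid cells are known for high ST2. The summed level of the 8 mast cell markers was 7.40 and 13.6 CPM in M7 and M8 and 8.25 and 5.78 CPM in M9 and M10, where *Kit* alone gave 4.95 and 4.63 CPM. Of these markers 5 could be tested and 4 were below 0 (median -1.44). Only *Cma1*, a mast cell protease, was called lower (log2 -3.21, adjusted p = 0.0224), beside 16.7% of all genes. The call of *Cma1* rested on 35 and 63 counts against 6 and 2. The median of the mast cell markers depended on single libraries, at -0.78 without M8 and -3.30 without M9. *Fcer1a*, a chain of the IgE receptor, had 11 and 8 counts in M7 and M8 and 0 in M9 and M10. Of the 7 innate lymphoid markers, 5 could be tested and 3 were called higher with TMM scaling (*Areg*, *Il7r* and *Gata3*), beside 22.7% of all genes. Their median was 2.82, or 0.10 when scaled to macrophage markers. The summed level was 23.1 and 21.4 CPM against 67.5 and 37.5 CPM, while the defining cytokines *Il5* and *Il13* had at most 4 counts in any library.

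Both inflammasome genes rose with TMM scaling, and *Casp1* but not *Nlrp3* fell below 0 with macrophage, pan-leukocyte or neutrophil scaling. *Nlrp3*, the sensor (ENSMUSG00000032691, plus strand of chr11:59541568-59566956), measured 6.31 and 7.37 CPM in M7 and M8 and 116 and 62.9 CPM in M9 and M10, from 173, 181, 2396 and 1154 counts. The difference was 13.1-fold (log2 3.71, SE 0.331, adjusted p = 0.00101), and 3.11 in log2 without M9. It was not called when scaled to macrophage markers (log2 0.79, adjusted p = 0.155). The window before its first RefSeq start, chr11:59541319-59541568 on GRCm38.p6, is shown because it holds an NF-κB consensus, 186 to 177 bases before the start, beside the HIF letters ACGTG 63 to 59 bases before it, both in capitals:
Nlrp3: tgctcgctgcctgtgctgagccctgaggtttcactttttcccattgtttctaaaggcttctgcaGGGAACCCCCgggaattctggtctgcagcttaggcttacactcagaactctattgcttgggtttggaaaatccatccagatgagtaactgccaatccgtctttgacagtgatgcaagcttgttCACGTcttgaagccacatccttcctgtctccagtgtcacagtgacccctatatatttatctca
*Casp1*, the protease that matures IL-1β and IL-18 (ENSMUSG00000025888, chr9:5298517-5307265), measured 5.58 and 4.07 CPM in M7 and M8 and 41.0 and 26.9 CPM in M9 and M10. It was 7.04-fold higher with TMM scaling (log2 2.81, SE 0.299, adjusted p = 0.0016), but its log2 value was -0.01 when scaled to macrophage markers and -0.40 when scaled to pan-leukocyte genes.

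Motif letters were searched on both strands of the 16 RefSeq windows that cover the 10 genes, and of all 32851 windows of 250 bases. TATAAA was present in 5 of the 16 windows, against 12.4% of all windows. The NF-κB consensus was present in 2 (*Nlrp3* and the second start of *Il1r1*, against 3.9%), TGANTCA in 2 (*Il1a* and *Il1rn*, against 6.75%) and TTGCNNAA in 3 (*Il1r1*, *Il1rl1* and *Il33*, against 9.56%). ACGTG was present in 4 windows (*Casp1*, *Il1r1*, *Il1r2* and *Nlrp3*, against 16.6%), and the PU.1 letters AGGAAGT were in none of the 16, against 7.69%. In *Il1r1* the TTGCNNAA and ACGTG matches lie side by side, and CACGTG matches ACGTG on each strand. The NF-κB consensus thus occurred before *Nlrp3*, which was higher, and before *Il1r1*, which was lower. These matches describe letters only.

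Levels of different genes can be compared only per length. Counts were therefore divided by the summed exon length and expressed as TPM, which have the same sum in every library. On this scale *Il1r1* was the highest of the 10 genes in M7 and M8, at 53.2 and 66.3 TPM, with *Il1b* next at 49.3 and 56.9 TPM. These neighbors in the order overlapped between libraries. *Il18* came next at 40.8 and 43.1 TPM, and *Nlrp3* and *Il1a* were the lowest, at 6.11 to 8.49 TPM.

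In M9 and M10 the order was another one. *Il1b* led at 552 and 239 TPM, above the range of any other of the 10 genes. *Il1rn* at 168 and 57.6 TPM and *Il1a* at 105 and 35.6 TPM came next, and these neighbors overlapped. *Il1r1* had moved to place 8 of 10, at 9.16 and 11.9 TPM, and *Il33* to the last place, at 2.74 and 1.94 TPM. *Il18* stood at place 7 with 42.3 and 22.3 TPM. Places 4 to 6 were held by *Il1r2*, *Nlrp3* and *Casp1*, between 25.6 and 63.9 TPM, and were not separated beyond the spread of the libraries.

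Ratios of a pair of genes within one library do not move with the scaling of libraries. They were computed for 11 pairs as log2 ratios of counts, not per length, so that they can be read across libraries only. An exact two-sided permutation test of 2 against 2 libraries cannot give a p below 0.333, so none of the 11 can reach the threshold. *Il1b* to *Il1rn*, agonist to antagonist, was 0.817 and 1.36 in M7 and M8 and 1.13 and 1.43 in M9 and M10. The groups overlapped (difference of log2 means 0.27, exact p = 0.667).

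*Il1a* to *Il1b* overlapped too, at 0.178 and 0.111 against 0.198 and 0.154. *Il1a* to *Il1rn* was 0.146 and 0.151 against 0.224 and 0.220, a log2 difference of 0.58 (exact p = 0.333). Both ratios with *Il1b* thus overlapped between labels, while *Il1a* to *Il1rn* was higher in M9 and M10 than in M7 and M8.

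Ratios of the decoy and of the antagonist to the signaling receptor differed more. There were 0.0667 and 0.0642 *Il1r2* counts per *Il1r1* count in M7 and M8, and 2.09 and 0.804 in M9 and M10 (log2 difference 4.30, exact p = 0.333). The log2 ratio of *Il1rn* to *Il1r1* was -1.98 ± 0.59 in M7 and M8 and 3.04 ± 1.36 in M9 and M10 (SD, n = 2), an exact permutation p of 0.333 for the difference of 5.01. Decoy and antagonist transcripts were thus higher relative to the signaling receptor in both libraries labelled SykMC-KO, with M9 above M10 in each ratio. Macrophage markers were also higher in these libraries (median log2 3.01) and fibroblast markers lower (median -1.44). Scaled to macrophage markers, *Il1r2* was at -0.03 and *Il1rn* at 0.75, neither of them called. Scaled to fibroblast markers, *Il1r1* was at -0.38 and not called. The part of cell composition in these ratios was not tested.

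*Il18* counts per *Il1b* count were 0.448 and 0.410 in M7 and M8 and 0.0415 and 0.0504 in M9 and M10 (log2 difference -3.23, exact p = 0.333). *Casp1* per *Nlrp3* was 0.884 and 0.552 against 0.353 and 0.428, and *Casp1* per *Il1b* was 0.237 and 0.144 against 0.0857 and 0.0976. *Casp1* was therefore lower relative to its sensor and to its substrate in the libraries labelled SykMC-KO. *Il1rl1* per *Il33* was 1.53 and 2.13 against 2.92 and 3.73, *Il33* per *Il1r1* was 0.177 and 0.157 against 0.136 and 0.0738, and *Il1rl1* per *Il1r1* overlapped, at 0.270 and 0.336 against 0.396 and 0.275.

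**Figure D2:**
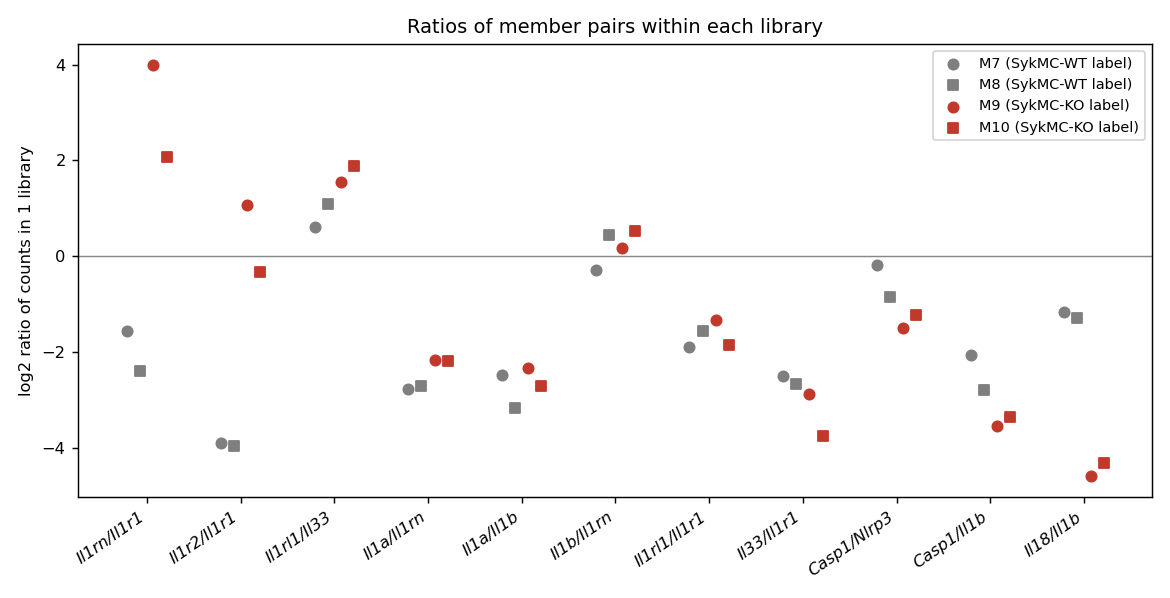
Log2 ratio of counts of gene pairs within each library, 1 point per library, with the gene pairs along the horizontal axis. The *Il1r2*/*Il1r1* and *Il1rn*/*Il1r1* ratios are separated most (log2 differences 4.30 and 5.01), while *Il1b*/*Il1rn*, *Il1a*/*Il1b* and *Il1rl1*/*Il1r1* overlap between labels. The size of both differences depends on the library, with 1.07 in M9 and -0.32 in M10 for *Il1r2*/*Il1r1*, and 4.00 and 2.07 for *Il1rn*/*Il1r1*.

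The libraries also differed in cell type markers. For comparison with the counts below, 22.7% of all genes were called higher and 16.7% lower with TMM scaling. When scaled to macrophage markers these shares were 0.766% and 87.0%, and 3.18% were called lower when scaled to fibroblast markers. All 10 macrophage markers were called higher in the libraries labelled SykMC-KO with TMM scaling (median log2 3.01, from 0.57 for *Mertk* to 3.57 for *Fcgr1*), as were all 6 pan-leukocyte genes, with a summed level of 386 and 299 CPM against 4127 and 2984 CPM. Neutrophils are a known source of *Il1b*, *Il1rn* and *Il1r2*. Of the 8 neutrophil markers, 6 could be tested and all 6 were called higher (median 3.27), with a summed level of 29.7 and 42.7 CPM against 465 and 233 CPM. Scaled to macrophage markers, 0 of them were called in either direction (median 0.32). *Ly6g* and *Camp*, which mark mature and immature neutrophils, had at most 11 counts in any library. Of the 8 fibroblast markers all had values below 0 and 5 were called lower (median -1.44), with a summed level of 12549 and 14444 CPM against 4060 and 4959 CPM, and *Dcn*, *Lum* and *Fap* were not called. Dendritic cell markers were called higher in 5 of 7 genes (median 3.91), T cell markers in 5 of 9 (median 2.69) and epithelial markers in 3 of the 4 tested (median 3.79). Scaled to macrophage markers these medians were 1.23, -0.10 and 1.02, with 1, 0 and 0 genes called higher and 1, 3 and 1 lower. The TMM calls of *Cd3e*, *Cd3g* and *Cd3d* rested on 1 to 4 counts in M7 and M8, and *Trac*, *Lck*, *Cd8a* and *Foxp3* were not called. Among epithelial markers *Epcam* rested on 3 and 1 counts against 74 and 11, and *Krt5* was not called (log2 0.01). Endothelial markers were called lower in 3 of 8 (median -0.75), and in 0 when scaled to fibroblast markers (median 0.34). With TMM scaling and a library left out, the T cell median ranged from 2.06 to 3.12, the epithelial from 3.27 to 4.03 and the endothelial from -1.12 to -0.69. Stromal cells are a known source of *Il33* and *Il1r1*. In bulk RNA, more cells of a type and more RNA per cell cannot be told apart.

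Each of the 10 genes was also set against these markers. With the 10 macrophage markers as the scale, the median log2 fold change of all genes moved to -2.78, 0.766% of all genes were called higher and 87.0% lower. On that scale only *Il1a* was called higher (log2 1.34, SE 0.576). *Il1b*, *Nlrp3* and *Il1rn* lay between 0.75 and 0.95. *Il1r2* at -0.03 and *Casp1* at -0.01 moved as the macrophage markers did. *Il18* was called lower at -2.26 (adjusted p = 0.000185), as were *Il33* at -5.04, *Il1rl1* at -4.20 and *Il1r1* at -4.18.

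Scaling to the pan-leukocyte genes left the same gene, *Il1a*, called higher (log2 0.97, adjusted p = 0.0349), beside 0.565% of all genes, and the same 4 called lower, beside 90.4%. Scaling to neutrophil markers left none called higher, beside 0.407% of all genes, and called 4 lower, beside 88.6%, with *Il1b* at 0.66 (adjusted p = 0.347). Scaled to fibroblast markers, 7 of the 10 genes were called higher, *Il18* among them at 1.73, beside 55.6% of all genes. On that scale *Il33* alone was called lower (log2 -1.11, adjusted p = 0.0202), beside 3.18% of all genes, and *Il1r1* and *Il1rl1* were not called. The part of cell composition in the differences of the 10 genes was not tested.

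**Figure D3:**
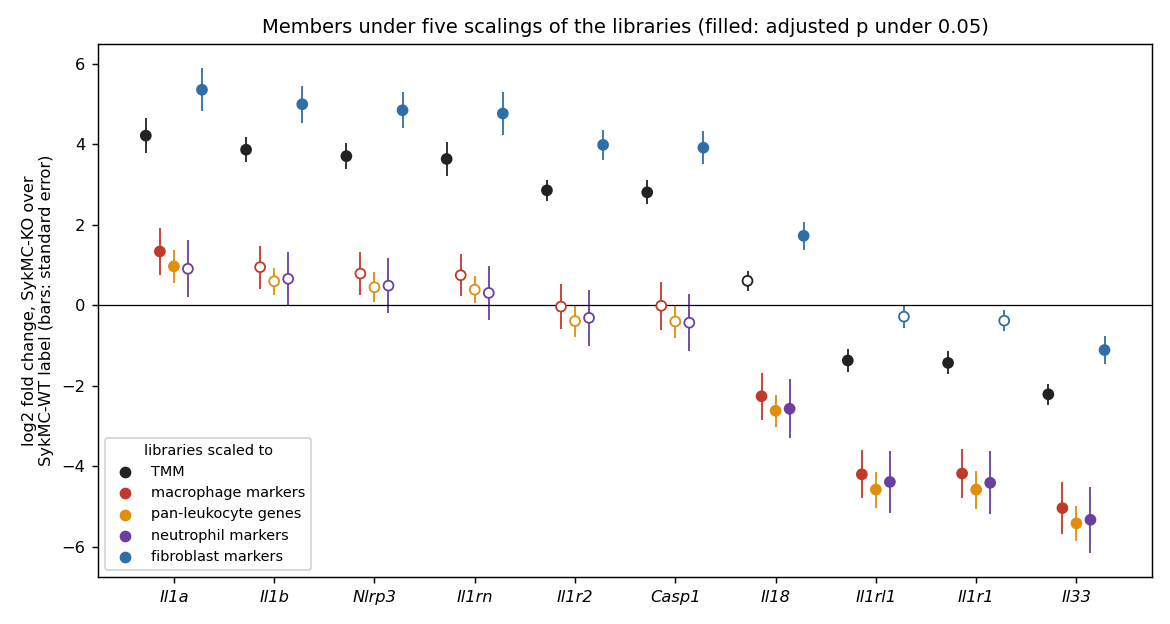
Log2 fold change of each of the 10 genes, libraries labelled SykMC-KO over those labelled SykMC-WT, with its standard error, under TMM scaling and scaling to macrophage, pan-leukocyte, neutrophil and fibroblast markers. *Il1a*, *Il1b*, *Il1rn* and *Nlrp3* stay above 0 and *Il33*, *Il1r1* and *Il1rl1* below 0 under each of the 5, while *Il1r2*, *Casp1* and *Il18* fall below 0 when scaled to macrophage, pan-leukocyte or neutrophil markers.

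The rest of the pathway was read from 6 lists with 65 genes, of which 56 could be tested. With TMM scaling 35 were called higher and 3 lower, beside 22.7% and 16.7% of all genes. When scaled to macrophage markers 1 was called higher (*Pycard*) and 28 lower, beside 0.766% and 87.0% of all genes. The same shares stand beside the count of each list. Among the other ligands and decoys, 2 of 6 genes could be tested, and both rose with TMM scaling. *Il18bp*, the soluble inhibitor of IL-18, measured 5.76 and 6.80 CPM against 27.3 and 21.5 CPM (log2 1.96, adjusted p = 0.00232), and its log2 value was -0.90 when scaled to macrophage markers. *Il1f9*, which encodes IL-36γ, measured 1.06 and 1.55 CPM against 12.7 and 7.03 CPM (log2 2.92, adjusted p = 0.00482), and its value was -0.02 on the macrophage scale. The other 4 ligands had at most 1 count in any library.

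Of the other receptors, 1 of 5 tested was called. *Il1rl2*, the IL-36 receptor, had a log2 fold change of 1.48 (adjusted p = 0.0285), and its value was -1.38 when scaled to macrophage markers. With TMM scaling it was 1.55, 1.41 and 1.80 without M7, M8 and M10, and smallest without M9. *Il1rap*, the co-receptor that IL1R1 and ST2 share, was at 0.67 (adjusted p = 0.109). The inhibitory receptor *Sigirr* was at 1.05 (adjusted p = 0.221), and the IL-18 receptor chains *Il18r1* and *Il18rap* were at -0.27 (adjusted p = 0.823) and -0.48 (adjusted p = 0.388). These values depended on single libraries. Without M9 *Sigirr* was at 1.53, *Il18rap* at -1.20 and *Il18r1* at 0.37. Without M10 *Il1rap* was at 0.99, *Sigirr* at 0.15 and *Il18r1* at -1.73.

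In signal transduction, 5 of 12 genes were called higher and 2 lower with TMM scaling. *Irak3*, an inhibitory kinase of the pathway, had the largest difference, with 2.41 and 1.67 CPM against 15.4 CPM in both M9 and M10 (log2 2.91, adjusted p = 0.00161). *Irak2* at 1.74, *Irak4* at 1.41 and the adaptor *Myd88* at 1.39 were also higher with TMM scaling, but were at -1.10, -1.35 and -1.39 when scaled to macrophage markers, where 0 of the 12 were called higher and 10 lower. *Irak1* fell by 1.01 on the log2 scale (adjusted p = 0.00449) and *Map3k7*, which encodes the kinase TAK1, by 0.60 (adjusted p = 0.0217). Their log2 values were -0.94 and -0.54 without M8, and -1.08 and -0.66 without M7. Scaled to fibroblast markers their log2 values were 0.08 and 0.49.

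Of the other inflammasome sensors, 8 of 11 tested were called higher and none lower with TMM scaling (median 1.98), while the median was -0.82 when scaled to macrophage markers. *Nlrp1a* at 3.75, *Naip1* at 3.55, *Naip2* at 2.85 and *Nlrp1b* at 2.41 differed most. Values of the *Naip* and *Nlrp1* genes are uncertain because close paralogs can share reads, and *Naip1* had only 3 and 5 counts in M7 and M8. Without M7 6 sensors were called higher and without M8 3, and *Naip1* and *Nlrp1b* lost their calls in both cases (adjusted p from 0.0605 to 0.162). Among the adaptor, caspases, gasdermins and release genes, 7 of 12 were called higher and 1 lower. *Pycard* encodes ASC, the adaptor that joins NLRP3 to caspase-1. It measured 4.81 and 3.34 CPM in M7 and M8 and 87.1 and 57.4 CPM in M9 and M10 (log2 4.14, SE 0.303, adjusted p = 0.000729), and it was the gene of these lists that stayed called higher when scaled to macrophage markers (log2 1.33, adjusted p = 0.0232). The membrane rupture gene *Ninj1* was at 2.40, *Card9* at 2.04 and *Casp8* at 1.88 with TMM scaling, and they were at -0.50, -0.75 and -0.95 on the macrophage scale, where 1 of the 12 genes was called higher and 8 lower. *Gsdmd*, the pore-forming substrate of caspase-1, lay at 45.4 and 45.6 CPM against 48.1 and 47.1 CPM (log2 0.07, SE 0.147, adjusted p = 0.751). Scaled to macrophage markers its log2 value was -2.74, beside a median of -2.78 over all genes. *Casp12* was lower (log2 -1.21, adjusted p = 0.0205), with a log2 value of -0.94 without M9 and -1.68 without M10. It was not called when scaled to fibroblast markers (log2 -0.17, adjusted p = 0.636).

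Of 16 genes known to respond to IL-1, 14 could be tested, and 12 were called higher and none lower with TMM scaling (median 2.16, and -0.71 when scaled to macrophage markers). *Cxcl2*, a neutrophil attractant, measured 70.6 and 87.7 CPM against 1401 and 729 CPM (log2 3.75, adjusted p = 0.0013). *Saa3* was at 3.33 and *Icam1* at 3.10, and *Cxcl5* at 3.97 rested on 4 and 3 counts in M7 and M8. *Ptgs2* at 0.66 (adjusted p = 0.132) and *Mmp3* at -0.59 (adjusted p = 0.262) were not called. Without M10 *Ptgs2* was at 1.07 and *Mmp3* at -0.88, while without M9 *Ptgs2* was at 0.03 and *Cxcl2* at 3.12. *Cxcl5* was at 4.10 without M7 and 3.84 without M8. Many of these genes also respond to other signals, and their response to IL-1 was not measured here.

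**Figure D4:**
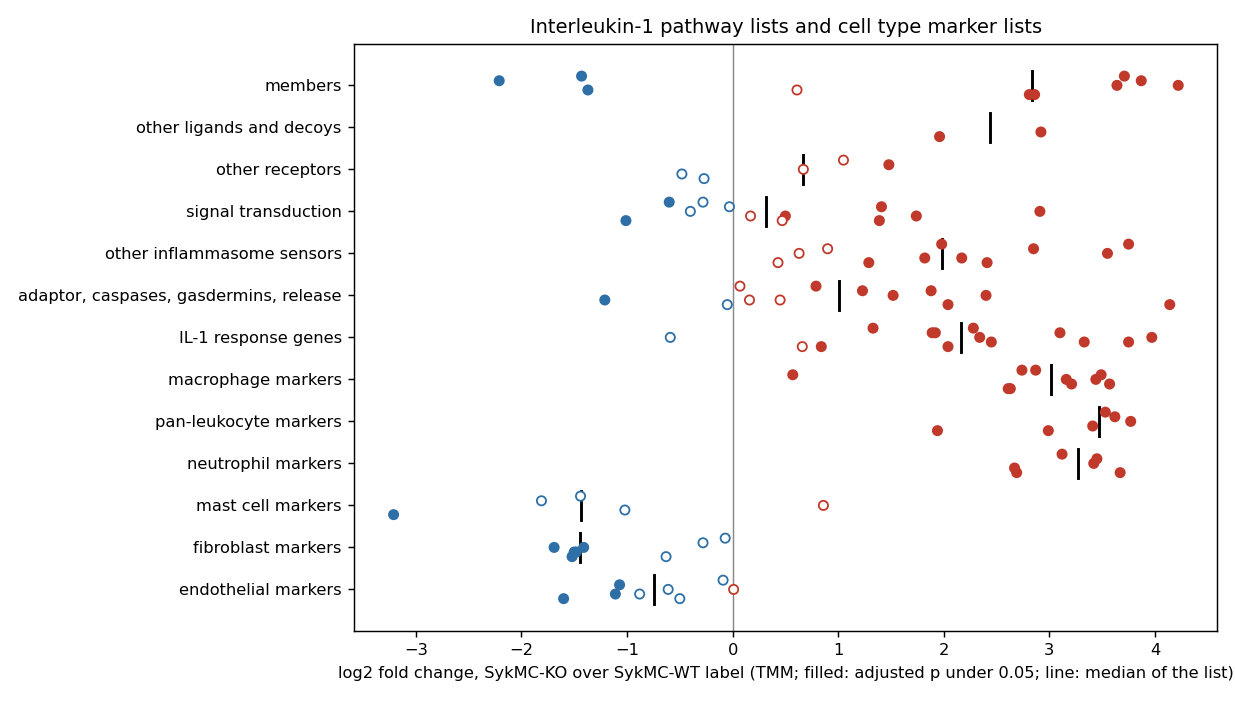
Log2 fold change of each gene tested, libraries labelled SykMC-KO over those labelled SykMC-WT with TMM scaling. Rows are the 10 genes, the 6 pathway lists and the macrophage, pan-leukocyte, neutrophil, mast cell, fibroblast and endothelial marker lists. Filled points have an adjusted p under 0.05, and a line marks each list's median. The inflammasome sensors (median 1.98) and the response genes (median 2.16) lie mostly above 0 but have medians below 0 when scaled to macrophage markers, and the fibroblast markers (median -1.44) lie below 0.

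The IL-1 receptor genes form a cluster on chromosome 1 in which *Il1r2*, *Il1r1*, *Il1rl2* and *Il1rl1* follow each other, with first bases 151.0, 250.5 and 355.5 kb from that of *Il1r2*. Their log2 fold changes alternated along it with TMM scaling, at 2.86, -1.43, 1.48 and -1.37. Scaling to macrophage markers lowered all of them, to -0.03, -4.18, -1.38 and -4.20. Such scaling shifts every gene by nearly the same amount, so it is no check of the alternation. The next genes, *Il18r1* and *Il18rap*, were not called. On chromosome 9 *Casp1* at 2.81 and *Casp4* at 1.52 were higher and *Casp12*, 46.9 kb from *Casp1*, was at -1.21 with TMM scaling. Scaling to macrophage markers lowered all 3, to -0.01, -1.29 and -3.95.

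**Figure D5:**
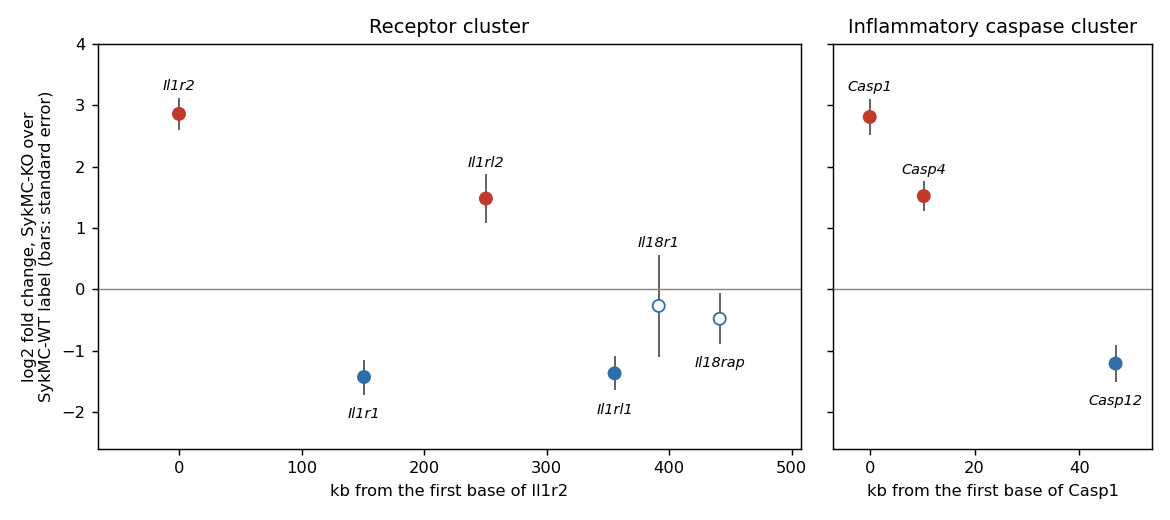
Log2 fold change with its standard error against the distance in kb from the lowest coordinate of an anchor gene, for tested genes of the receptor cluster and the inflammatory caspase cluster. Values are libraries labelled SykMC-KO over those labelled SykMC-WT with TMM scaling. *Il1r2* and *Il1rl2* lie above 0 and *Il1r1* and *Il1rl1* below 0. Scaled to macrophage markers all of them are lower, *Il1r2* at -0.03, *Il1rl2* at -1.38, *Il1r1* at -4.18 and *Il1rl1* at -4.20.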

How the data were processed

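TAM libraries, 2 per genotype, were analysed from a table of gene counts. The authors aligned the reads to mm10 using STAR, quantified them with Salmon under bcbio, and deposited counts as whole numbers by Ensembl gene, not normalized. The submitters' processing notes name STAR 2.6.1d, Salmon 1.4.0, Picard 2.26, SAMtools 1.9 and MultiQC 1.11. No source says how Salmon's estimates, in which similar genes can share reads, were made whole. The study's methods describe single reads in triplicate, while the labels give paired reads and 2 libraries per genotype. GENCODE M21 annotation of GRCm38 supplied symbols, positions and exon lengths for 54495 of 54532 genes, and RefSeq (GRCm38.p6) the promoters. Protein sequences were not used here.

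In R 4.3.3, edgeR 4.0.16 was run with filterByExpr, TMM (factors 1.22 and 1.19 for M7 and M8, 0.876 and 0.787 for M9 and M10) and its quasi-likelihood test without the robust option. P-values of 16451 genes were adjusted by Benjamini-Hochberg, with 0.05 as the threshold. The code was tested on simulated counts. For ratios within a library, 0.5 was added to each count and an exact permutation test was used. TPM were made from counts and summed exon lengths. The detection floor of 3 counts equalled 0.109 to 0.163 CPM. It covers counting error only, because PCR copies of a molecule were not told apart by identifiers. Libraries of a label differed by more than sampling noise (chi-square per degree of freedom 50.6 for SykMC-WT and 168 for SykMC-KO), so each was 1 sample.

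The 10 genes, the pathway lists and the marker lists were chosen with earlier results of these data known. The text names these 10, *Syk*, *Lyz2*, up to 4 called genes per direction with the largest changes in each pathway list, *Il1rap*, *Il18r1*, *Il18rap*, *Il18bp*, *Sigirr*, *Pycard* and *Gsdmd*, and extreme or nearly absent markers. Any other gene was named after its values were seen. Alternatives comprised size factors and the Wald test from DESeq2 1.42.0, library size alone, macrophage or pan-leukocyte scaling, removal of mitochondrial and 4 rRNA-like genes, looser (1 count in all) and stricter (10 counts per library) filters, and leaving out each library. Fibroblast and neutrophil scaling were added after the data were seen. Leaving out a library leaves a single library of its label, so the spread then comes from the other label alone. Single genes are therefore given by effect size only for those fits, and counts of genes called in them carry the same limit.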

Additional observations from a re-analysis of the deposited data

How the results depend on the processing

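No paired analysis was possible because the labels give the 2 genotypes no replicate number in common. The calls and directions of the 10 genes held with DESeq2 size factors, library size only, both other filters on low counts, the DESeq2 Wald test and without mitochondrial and rRNA-like genes. Most changes came with scaling to marker genes. The value in log2 of *Il18*, *Il1r2* and *Casp1* turned to -2.26, -0.03 and -0.01 with macrophage scaling, -2.62, -0.39 and -0.40 with pan-leukocyte scaling and -2.57, -0.31 and -0.43 with neutrophil scaling. The genes called higher numbered 1, 1 and 0 of the 10 with these scalings, and with fibroblast scaling 1 was called lower. The pathway lists had 1, 1 and 0 genes called higher and 28, 40 and 32 lower with these scalings, 0 lower with fibroblast scaling and 6 lower with library size only. Macrophage markers called higher were 0 with each of the 3 leukocyte scalings. Fibroblast markers called lower were 8 with each of them and 0 with their own scaling.

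Over all genes, 3729 were called higher and 2747 lower. These were 1678 and 5407 with library size only, 126 and 14313 with macrophage scaling, 93 and 14873 with pan-leukocyte scaling, 9153 and 523 with fibroblast scaling, and 67 and 14579 with neutrophil scaling. With a library left out, the calls ranged from 1478 to 5010 higher and from 807 to 4745 lower, the fewest without M8. The pathway genes called lower ranged from 0 (without M8) to 5 (without M10). The differences in log2 ratio ranged from -0.04 to 0.64 for Il1a/Il1b, -0.09 to 0.64 for Il1b/Il1rn, -0.13 to 0.40 for Il1rl1/Il1r1, -0.16 to 0.51 for Il1rn/pan-leukocyte list, -0.52 to 0.30 for Il1r2/macrophage list and -0.02 to 0.57 for Nlrp3/pan-leukocyte list. For the 10 genes, leaving out a library changed no direction. The difference of *Il1rl1* was then smallest without M8, and the log2 value of *Il18* was 0.24 without M9 and 0.86 without M10. The causes of these shifts were not tested. With 2 libraries per label, spread is poorly known, and genotype and the difference in marker levels cannot be told apart.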
